A study of Mus musculus with 27 samples.

Results

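Genes of the mTOR complexes and of the chaperone that assembles them were described by their level in B16 cells, a mouse melanoma line. The 10 genes were chosen by symbol from a list of subunits and partners: Telo2, Tti1, Tti2, Mtor, Rptor, Rictor, Mlst8, Mapkap1, Rheb and Rps6kb1. All 10 were found in each of the 3 deposited tables, among 23420 gene entries. Messenger RNA was sequenced from the 3′ ends of polyadenylated transcripts in 27 samples, 3 for each of 9 groups. Parental B16 cells and the clones cl#02 and cl#09 were each left untransfected, or given siCtrl or siTbx2 for 48 h. Both clones, named clone 2 and clone 9 below, are B16 cells whose own Tbx2 gene carries a 3xHA tag, and each was picked as 1 clone, so neither stands for a population of tagged cells. The deposited tables set siTbx2 against siCtrl in each line. Their fold changes, standard errors, test statistics and p-values are the authors' own comparison and were not used here, so no response of these genes to Tbx2 depletion, and no check of the Tbx2 knockdown, is given.

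The remaining value is the mean normalized count of a gene, that is its read count after division by a size factor for each library, averaged over libraries. It was identical in the 3 tables for each of the 23508 symbols found once in all of them (largest difference 0). It therefore describes the libraries pooled over lines and cannot be assigned to a line or an siRNA. The sources used here do not state whether the untransfected samples entered the mean. No value per library was used, so no level below has an error, library depths are unknown, and no difference between genes could be tested.

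The protein kinase mTOR senses nutrients and growth factors and works in 2 assemblies. In mTORC1 it is joined by Raptor, which recruits substrates, and promotes protein synthesis and growth. In mTORC2 it is joined by Rictor and by mSin1, the product of Mapkap1, and phosphorylates AKT. Both hold mLST8, a WD40-repeat protein. The small GTPase Rheb activates mTORC1 at the lysosome, and the S6 kinase encoded by Rps6kb1 is one of the best known substrates of mTORC1. TELO2, TTI1 and TTI2 form the TTT complex, a cochaperone that stabilises newly made mTOR and the related proteins ATM, ATR, DNA-PKcs, SMG1 and TRRAP.

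The melanocyte lineage that the label of melanoma implies was checked against marker genes in the same tables, and melanocyte genes were abundant. These markers bear on lineage only and do not test whether the cells are malignant. All 7 markers examined had means from 293.6 for Tyr to 48045 for Dct, which encodes dopachrome tautomerase. Markers of other cell types all lay below the lowest melanocyte marker. The 3 leukocyte markers ranged from 0.029 to 7.09, the 2 endothelial markers from 0.136 to 1.61 and the 2 keratinocyte markers from 0.157 to 0.204. Among 3 fibroblast markers the range was 1.52 to 24.9, the highest being Col1a1, a collagen that melanoma cells can also express. Col1a1 was higher than 57.0% of the genes with a mean above 0.

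All 10 genes were expressed above the median gene. That median was 7.48 over the 20896 genes with a mean above 0, and the 10 genes spanned 16.1 to 393.0 with a median of 206.8. Among the 10121 genes with a mean of 10 or more, whose median was 131.2, 6 of the 10 lay above the median and 4 below it. Those below were Mtor, Rptor, Tti1 and Tti2. The kinase itself, its mTORC1-defining partner and 2 of the 3 TTT subunits were thus the lowest of the set in this measure.

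**Figure D1:**
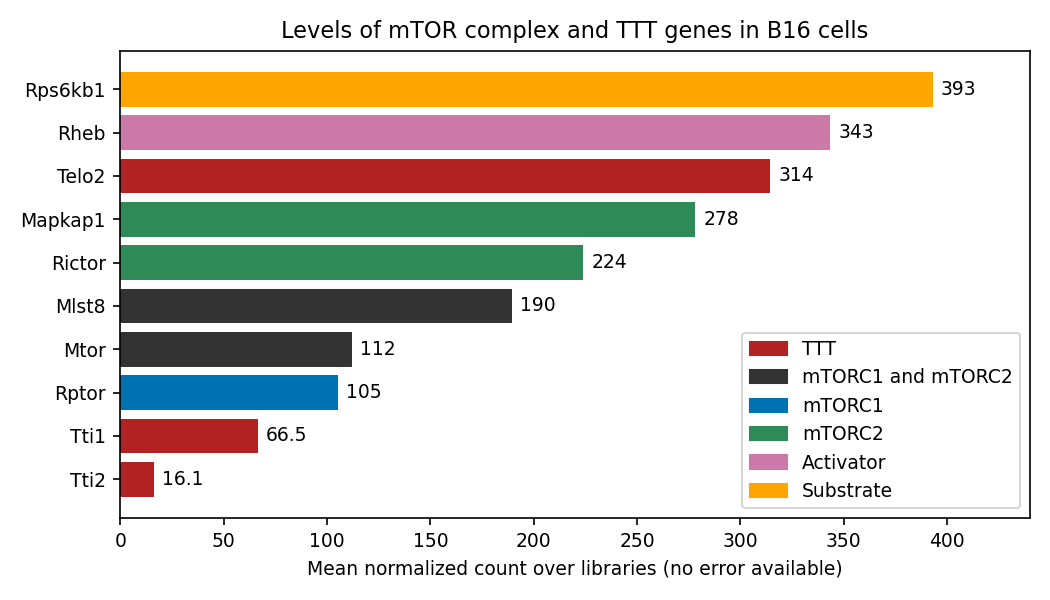
Mean normalized count over libraries (horizontal axis, linear from 0) of each of the 10 genes, 1 bar per gene, coloured by role. No error bars can be drawn, and the bars fall from 393.0 for Rps6kb1 to 16.1 for Tti2.

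The 3 TTT genes differed widely in level. Telo2, whose yeast counterpart was first known from telomere length control, had a mean normalized count of 314.3, higher than 87.5% of the genes above 0. Tti1 had 66.5, higher than 66.4% of genes. Tti2 had 16.1, higher than 54.2% of genes and the lowest of the 10. On the scale of mean normalized counts Telo2 was thus 4.73 times Tti1 and 19.5 times Tti2. Counts of 3′ end reads do not grow with transcript length as counts over whole transcripts do, so they were left uncorrected, but the ratios were also taken per kilobase of coding length. There Telo2, at 124.7 per kilobase, was 6.11 times Tti1 and 12.5 times Tti2, with Tti2 again last. This scale divides the same means by a fixed length, so it is not a second measurement. The proteins occur together in 1 complex, and mRNA counts do not give their amounts.

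Telo2 lies on the minus strand of chromosome 17 of GRCm38, from 25099570 to 25115967. Its transcript with the longest coding sequence has 21 exons and 2520 coding bases. Tti1 lies on the minus strand of chromosome 2 from 157981803 to 158028433 and has 8 exons. Tti2 lies on the plus strand of chromosome 8 from 31150315 to 31164702, also with 8 exons. The last exon of Tti2 overlaps Mak16, a gene for a ribosome biogenesis factor on the opposite strand, whose mean normalized count was 350.4. The sources used here do not say whether strand was used in counting, so the part of overlapping reads in the low value of Tti2 was not tested.

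The subunits shared by both mTOR complexes, Mtor and Mlst8, stood in the lower part of the set by mean normalized count. Mtor, the kinase, had a mean normalized count of 112.1, higher than 73.5% of genes above 0. It spans chromosome 4 from 148448611 to 148557683 on the plus strand, with 58 exons and 7647 coding bases, the longest coding sequence of the 10. Mlst8 had 189.6, higher than 81.1% of genes, on 978 coding bases at chromosome 17 from 24473551 to 24479078. The mean normalized count of Mlst8 was 1.69 times that of Mtor, and 13.2 times per kilobase of coding length. The larger ratio comes from the coding lengths, since Mtor is long and Mlst8 short. Counts of 3′ end reads do not grow with transcript length, so they do not call for this division. Whether ratios of such counts between genes give relative amounts of mRNA was not tested. The last exon of Mlst8 overlaps Bricd5 on the opposite strand, a gene listed with a mean of 0.

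Rictor and Mapkap1, of mTORC2, had higher means than Rptor, the subunit that defines mTORC1. The accessory mTORC2 genes Prr5 and Prr5l, described below, were lower than Rptor, at 75.1 and 4.11. Rptor, which encodes Raptor, had a mean normalized count of 105.1, higher than 72.5% of genes. Rictor had 224.0, higher than 83.3%, and Mapkap1 had 278.2, higher than 86.0%. Rictor was 2.13 times Rptor by mean normalized count and 1.67 times per kilobase of coding length. Mapkap1 was 2.65 times Rptor on the first scale and 6.77 times on the second. The direction was the same on both, but the second scale only divides the same means by coding length, and neither has an error. Rptor spans chromosome 11 from 119602905 to 119899576 in 34 exons, Rictor chromosome 15 from 6708379 to 6800401 in 38 exons, and Mapkap1 chromosome 2 from 34406771 to 34624950 in 12 exons.

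Rheb and Rps6kb1, which act just above and below mTORC1, were the highest of the 10. Rps6kb1, which encodes S6 kinase 1, had a mean normalized count of 393.0, higher than 89.9% of genes above 0. Rheb had 343.4, higher than 88.5%. Rheb has the shortest coding sequence of the 10, 552 bases, and per kilobase it came first at 622.0, ahead of Rps6kb1 at 249.5. The last exon of Rps6kb1 overlaps Rnft1 on the opposite strand, a gene with a mean normalized count of 89.1. Rheb lies on chromosome 5 from 24802823 to 24842624 and Rps6kb1 on chromosome 11 from 86498871 to 86544805, both on the minus strand.

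Each of these 2 genes had a paralog at a lower level. Rps6kb2, for S6 kinase 2, had a mean normalized count of 19.4, so that Rps6kb1 was 20.3 times as high by mean normalized count and 18.7 times per kilobase of coding length. Rhebl1, a close relative of Rheb, had 93.2, and Rheb was 3.68 times as high, or 3.76 times per kilobase. The coding lengths within each pair are similar, and the ratios moved little between the scales.

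**Figure D2:**
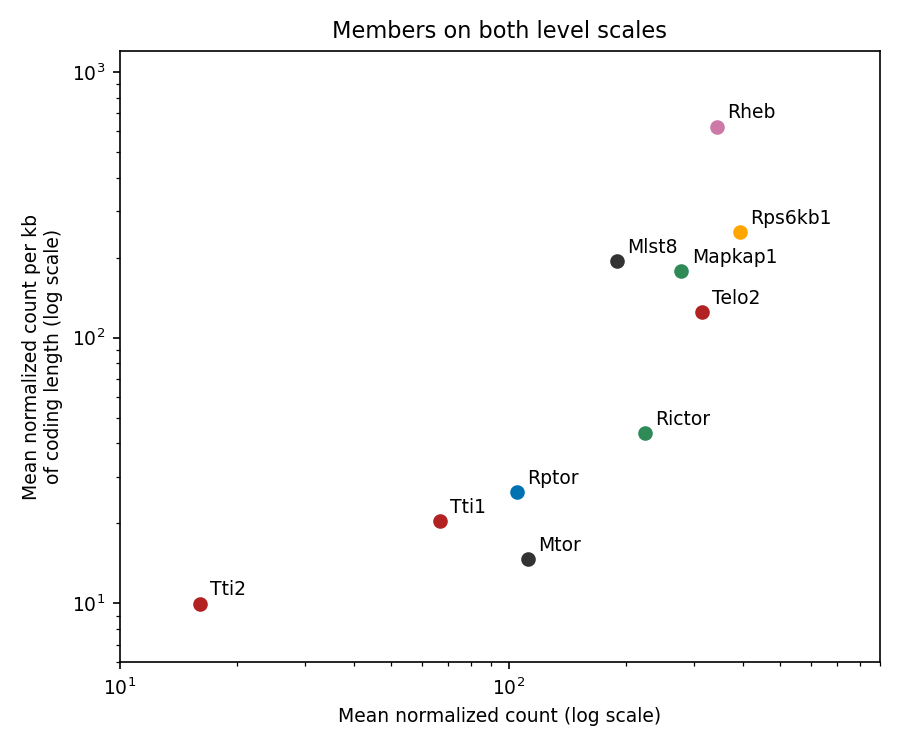
Mean normalized count (horizontal axis, log scale) against mean normalized count per kilobase of coding length (vertical axis, log scale), 1 point per gene with the colours of the bar plot. Tti2 is lowest on both scales at 16.1 and 9.99, while Rheb moves to the top and Mtor, at 14.7 per kilobase, down to the place above Tti2.

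The order of the set changed in part on division by coding length, which counts of 3′ end reads do not call for. By mean normalized count it ran Rps6kb1, Rheb, Telo2, Mapkap1, Rictor, Mlst8, Mtor, Rptor, Tti1 and Tti2. Per kilobase of coding length it ran Rheb, Rps6kb1, Mlst8, Mapkap1, Telo2, Rictor, Rptor, Tti1, Mtor and Tti2. Mapkap1 and Tti2 held the fourth and the last place on both. Without values per library it cannot be said which neighbours in either order differ by more than their spread.

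Accessory subunits and other partners of the complexes were measured in the same tables. Of 4 accessory subunits, Deptor, an inhibitory subunit of both complexes, had the highest mean normalized count at 129.5. Prr5, which encodes Protor-1 of mTORC2, had 75.1 and Akt1s1, which encodes the mTORC1 inhibitor PRAS40, had 58.4. Prr5l, for the related Protor-2, had 4.11, below the median gene. Deptor lay above Mtor at 112.1 and Rptor at 105.1, and the others lay below both. All 4 lay below Mlst8 at 189.6, and their median was 66.7.

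The genes of the other mTOR-related proteins that TTT stabilises were mostly lower than Mtor. Atm, the DNA double-strand break kinase, was the exception with a mean normalized count of 225.9, which was 2.01 times Mtor, or 1.67 times per kilobase of coding length. Smg1, of nonsense-mediated decay, had 69.8, and Trrap, a scaffold of histone acetyltransferase complexes without kinase activity, had 55.0. Atr, the replication stress kinase, had 37.7, and Prkdc, which encodes DNA-PKcs, had 26.8. Telo2, at 314.3, was higher than each of the 5 and than Mtor in mean normalized count. Tti2, at 16.1, was lower than all of them.

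TTT works with the R2TP complex and HSP90. The 4 R2TP genes lay close together, Ruvbl1 at a mean normalized count of 176.4, Rpap3 at 162.6, Ruvbl2 at 136.1 and Pih1d1 at 101.1. All of them were below Telo2 and above Tti1. The HSP90 genes Hsp90aa1 and Hsp90ab1, at 11236 and 21862, were far above any TTT or mTOR gene. Among 6 substrates of mTORC1 or S6 kinase, Eif4b, a cofactor of translation initiation, was highest at 1131 and Rps6, a ribosomal protein, had 836.2. Eif4ebp1, a translational repressor, had 467.3, whereas its paralog Eif4ebp2 had 32.7. Ulk1, which starts autophagy, had 287.3 and Tfeb, a transcription factor of lysosomal genes, had 45.5.

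**Figure D3:**
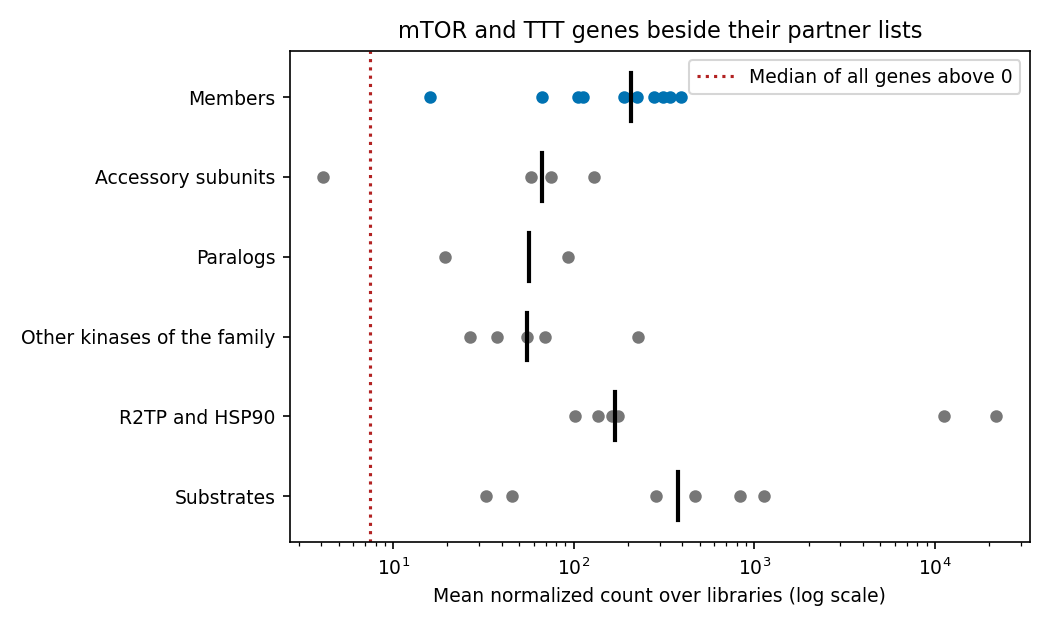
Mean normalized count over libraries (horizontal axis, log scale) of the 10 genes and of 5 partner lists, 1 point per gene, with a black bar at the median of each list and a dotted line at 7.48, the median of all genes above 0. The 10 genes lie to the right of the dotted line, and in the partner lists Prr5l alone lies to its left.

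Promoters were searched for the E-box and the T-element, which are among the sequences that the study discusses for Tbx2. RefSeq promoter windows of GRCm38.p6, from 250 bases before to 50 bases after a start, were matched by symbol for 9 of the 10 genes, in 11 windows, with Tti2 unmatched. The E-box CACGTG, a palindrome, was found in 2 of the 11 windows, 1 of Rheb and 1 of Telo2, and in 7.15% of all 32851 windows. TCACACCT, the reverse complement of the consensus T-element, was searched on both strands. It was in none of the 11 windows and in 1.275% of all. Looser forms, such as the near consensus that the study reports beneath its Tbx2 peaks, were not searched. The E-box that the study reports there has a T before CACGTG, which was not required in this search. These are matches of letters, and no binding data entered them. The study mapped Tbx2 binding by chromatin immunoprecipitation in clone 2 and clone 9, and its peaks were not used here. The 2 matches are shown with the E-box in capitals, since they are the sites a reader would look up beside the level of each gene.
Rheb E-box: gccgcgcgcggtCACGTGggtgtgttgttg
Telo2 E-box: atccgtgcaggtttCACGTGagctctgcga
The stretch of Rheb is chr5:24842440-24842469 and that of Telo2 chr17:25115856-25115885, both read along the minus strand, on which the genes lie. Counting the RefSeq start of the window as 0, the E-box of Rheb begins at −96 and that of Telo2 at 34. Both stretches are also part of annotated transcripts in GENCODE M21, that of Rheb in 2 transcripts and that of Telo2 in 4, so the place of either site relative to a start depends on the annotation. Telo2 has 2 windows in the table, and 1 of them holds the match. In all, GC content of the 11 windows ran from 41.7% for Rptor to 78.3% for Rictor, and 9 of the 11 were above the median of all windows, 52.7%. All 11 held more CG pairs than the median of all windows, 7. CACGTG itself holds a CG pair, so 7.15% is not a share among windows of like content.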

How the data were processed

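RNA of 27 samples was sequenced from 3′ ends. Per the labels and the methods, the authors used FastQC 0.11.7 for read quality, STAR 2.6.1d for alignment to mm10, featureCounts (Subread 1.6.2) for counts per gene, and DESeq2 1.28.1. A single signal was used from the deposited tables, the mean over libraries of counts normalized by the authors. The 5 other numeric columns of each table hold log2 fold changes with errors, test statistics and raw and adjusted p-values. They are the authors' comparison and were not used. Of 23512 entries, 92 spike-in transcripts were left out, and 27 names had become dates.

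A gene was placed by the percentage of genes above 0 with a lower mean. Coordinates and coding lengths, of the transcript with the longest coding sequence, are from GENCODE M21 on GRCm38, the build mm10 names, and promoters from RefSeq on GRCm38.p6. Genes named are the 10 members and the fixed partner and marker lists, all chosen with earlier results of these data known. Alternatives were the floor of 10 on the mean, the table read, the length scale and the promoter window. Protein features were not analysed here. Python 3.11.15, pandas 2.3.3 and numpy 2.4.6 were used.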

Additional observations from a re-analysis of the deposited data

How the results depend on the processing

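The mean of each of the 10 genes was the same in the clone 2 and clone 9 tables as in the parental one. Ranking among every gene in the table, those at 0 included, moved no percentage by more than 10% of its value. Ranking among genes with a mean of at least 10 lowered all 10, to between 5.50% for Tti2 and 79.1% for Rps6kb1. The same floor dropped Prr5l, which raised the median of the accessory subunits to 75.1. It left Col1a1 alone among the fibroblast markers, at 24.9. With the 250 bases before the RefSeq start alone, 1 gene, Rheb, held an E-box, in a stretch that 2 GENCODE transcripts of Rheb include. The share of all windows was then 6.02%. The scale per kilobase of coding length was taken from GENCODE after the data were seen, because the planned RefSeq proteins were not used here, and changed the place of 8 of the 10 genes. No paired analysis was possible because no value per library was used and no test was run, and for the same reason no replicate could be left out.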
